A study of Mus musculus with 8 samples.

Results

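The imprinted growth genes described here are 10 genes chosen by name: H19, Meg3, Rian, Dlk1, Peg3, Mest, Plagl1, Grb10, Ndn and Nnat. All 10 were among the 16432 genes listed in the files, and all 10 passed the filter on low values in every comparison. The series sequenced messenger RNA of chondrocytes, the cells that build cartilage, isolated as primary cells from the sterna of C57BL/6 mice at embryonic day 18.5. The study asked what mutant Idh1, an isocitrate dehydrogenase gene, does to the transcriptome of these cells. Of the 8 libraries, 3 came from Col2a1Cre;Idh1 fl/+ embryos (called Cre-Idh1 below), 3 from Col2a1Cre embryos (Cre control) and 2 from Idh1 fl/+ embryos (floxed control). The Cre transgene is driven by the promoter of Col2a1, the gene for the main cartilage collagen, so that recombination is directed to Col2a1-expressing cells. The Cre control carries the transgene without the floxed Idh1 allele and the floxed control carries the allele without Cre. The series' design text writes the floxed genotype as fl/fl where the sample labels write fl/+. Whether each library is a separate embryo, litter or pool is not stated, so the p-values below measure only the spread between these libraries.

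Imprinted genes are transcribed mainly from the allele of one parent. Differential DNA methylation set in the germ line marks control regions that keep whole clusters of them in this state, and many members of the class set the size of the fetus and its tissues. In most mouse tissues, H19, Grb10, Meg3 and Rian are known as transcripts of the maternal allele. Dlk1, Peg3, Mest, Plagl1, Ndn and Nnat are known as transcripts of the paternal allele. The counts do not separate the parental alleles, so each value below is the sum of both.

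The genes lie on 6 chromosomes in the reference annotation. H19, Peg3 and Ndn are on chromosome 7 in 3 separate imprinted domains, and Dlk1, Meg3 and Rian share 1 domain on chromosome 12. Mest is on chromosome 6, Plagl1 on chromosome 10, Grb10 on chromosome 11 and Nnat on chromosome 2. Exons of Mest overlap exons of Copg2 on the opposite strand, and exons of Meg3 overlap those of the clone-named gene AC152063.1 on the opposite strand. Nnat lies inside Blcap, which runs the other way, with no exon in common, but shares exon sequence with the small predicted gene Gm23134. The library kit is a stranded one by the labels, but no source used here gives the strand setting of the read counting, so reads of such pairs may not be fully separated.

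The promoter windows of 4 members are printed because these genes of the same class differed from the controls in opposite directions on average. Peg3 and Grb10 were lower, and Dlk1 and Meg3 higher, in Cre-Idh1 libraries than in control libraries on average. None of the 4 passed the test given below against either control alone, and Dlk1 overlapped the Cre control. The windows are the 250 bases before the RefSeq start on build GRCm38.p6, written 5′ to 3′ on the gene's own strand, with each CpG dinucleotide, the site of DNA methylation, in capitals. They are chr7:6730420-6730669 on the minus strand for Peg3, chr11:12037421-12037670 on the minus strand for the first of 2 Grb10 starts, chr12:109452573-109452822 on the plus strand for Dlk1 and chr12:109540746-109540995 on the plus strand for the first of 2 Meg3 starts.
Peg3: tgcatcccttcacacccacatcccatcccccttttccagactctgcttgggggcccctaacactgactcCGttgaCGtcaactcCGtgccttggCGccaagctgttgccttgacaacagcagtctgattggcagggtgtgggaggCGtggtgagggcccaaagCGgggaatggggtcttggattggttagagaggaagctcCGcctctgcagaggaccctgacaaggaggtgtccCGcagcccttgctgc
Grb10: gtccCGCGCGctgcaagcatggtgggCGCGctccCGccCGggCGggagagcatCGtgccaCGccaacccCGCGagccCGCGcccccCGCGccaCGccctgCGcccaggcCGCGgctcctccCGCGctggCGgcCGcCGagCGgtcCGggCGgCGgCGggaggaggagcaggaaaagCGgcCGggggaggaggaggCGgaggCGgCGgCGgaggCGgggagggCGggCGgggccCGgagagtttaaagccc
Dlk1: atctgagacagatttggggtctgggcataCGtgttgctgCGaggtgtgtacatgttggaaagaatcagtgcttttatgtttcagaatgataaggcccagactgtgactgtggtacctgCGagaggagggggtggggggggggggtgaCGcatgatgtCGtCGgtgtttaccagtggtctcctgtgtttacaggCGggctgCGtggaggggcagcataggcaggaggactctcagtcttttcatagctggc
Meg3: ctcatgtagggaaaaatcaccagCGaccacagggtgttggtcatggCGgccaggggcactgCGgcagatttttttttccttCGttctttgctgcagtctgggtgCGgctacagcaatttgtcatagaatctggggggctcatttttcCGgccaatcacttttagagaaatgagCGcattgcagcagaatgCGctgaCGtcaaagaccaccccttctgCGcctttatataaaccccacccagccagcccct
The Grb10 window holds 40 CpG, and 98.7% of the 32851 mouse promoter windows compared have fewer. The median window has 6. The Peg3 and Dlk1 windows hold 8 each and the Meg3 window 10, numbers that 57.0% and 62.2% of windows do not reach. Of the other members with a RefSeq window, Plagl1 has 19 CpG, Nnat 12, Ndn 5 and Rian 0, and the 3 windows of Mest have 7, 14 and 14. The second start of Grb10 has 8 and that of Meg3 has 0. In all, 9 of the 10 members had a window in the RefSeq table. CpG content therefore differed widely among the members, also among those with lower counts in Cre-Idh1 libraries, such as Grb10 and Ndn.

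The windows were searched for 3 motifs on both strands. GGGGCCCC, the motif bound by the zinc finger protein that Plagl1 encodes, reads the same on both strands and is found in the Peg3 window, in the stretch gggggcccct, and in no other member's window. It occurs in 0.889% of all windows. ATGGCG, a core motif of the factor YY1, is found in the first Meg3 window and in 5.73% of all windows. A motif of the insulator protein CTCF was in no member's window and in 0.0335% of all windows. These matches describe letters only and say nothing of binding. GGGGCCCC and ATGGCG do not overlap in any of these windows.

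The libraries held between 31860422 and 44988540 reads in listed genes, and the values given are the authors' normalized counts, which are read counts divided by a size factor for each library. Cartilage genes dominated every library, with Col2a1 between 5586175 and 8277656 normalized counts. Idh1 itself was at 3654 ± 258 (SD, n = 3) in Cre-Idh1, 3754 ± 205 (n = 3) in Cre control and 2357 ± 133 (n = 2) in floxed control libraries, and these counts do not tell a mutant from a wild-type transcript. By Xist and Y-linked transcripts, Cre-Idh1 library 1 and Cre control libraries 1 and 3 came from females and the other 5 from males. Markers of other cell types moved with the genotype: the summed adipocyte markers (4 of 6 listed in the files) ran from 1719.8 to 2156 in Cre-Idh1 libraries, 1003 to 1216 in Cre control and 990.4 to 1088 in floxed control libraries. Summed macrophage markers (7 of 8) ran from 1034 to 1908, 551 to 921 and 597 to 676 in the same order. Summed perichondrium and fibroblast markers (all 12), the cells around the cartilage in which many imprinted genes are also active, ran from 120683 to 170759, 108935 to 169988 and 152633 to 184689, so that these groups overlapped. Of those 12 genes, 3 fell, Pdgfra and Prrx1 by the most, and 2 rose, Twist2 by the most, in Cre-Idh1 against either control. In bulk RNA, fewer cells of a type and less RNA per cell cannot be told apart, and the part of these cells in the results below was not tested.

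All but Ndn and Nnat were among the most abundant transcripts of the chondrocytes, with ranks by normalized count, not corrected for length, between 9 and 84 in every library. Together the 10 genes took between 1.87% and 2.001% of the reads in Cre-Idh1 libraries, 2.07% to 2.26% in Cre control and 2.10% to 2.26% in floxed control libraries. Per kilobase of exon, H19 stood highest at a mean of 113186 normalized counts per kb over the 8 libraries. H19 ranked between 9 and 12 among all genes, Ndn between 1146 and 2504 and Nnat between 12018 and 14221. Dlk1 (18764 per kb, range 13975 to 26848) and Mest (18435, range 13213 to 23794) followed, and their ranges over libraries overlapped. Peg3 was at 10106 per kb, Plagl1 at 7539, Grb10 at 4833 and Meg3 at 3101, each overlapping the next in this order. Rian at 1673 per kb and Ndn at 996 per kb each lay apart from both neighbours. Nnat, at 19.7 per kb, was far below the rest and rested on 13 to 59 reads a library. The order therefore has clear steps below H19, between Mest and Peg3, and from Meg3 down to Nnat, while the middle places are not separated beyond the spread. Lengths are unions of annotated exons and count isoforms that these cells may not use.

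**Figure D1:**
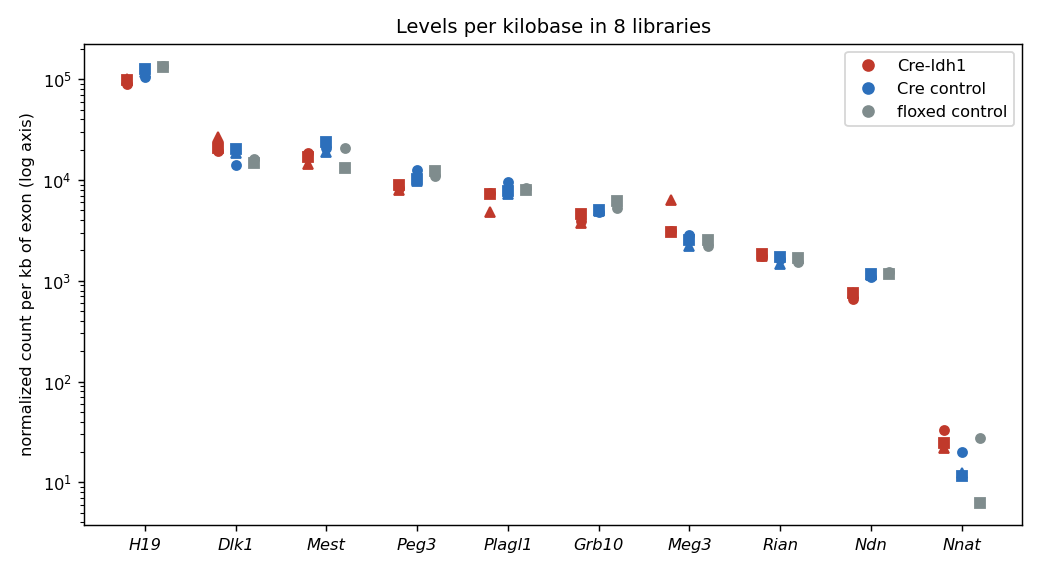
Normalized count per kilobase of exon (log axis) for the 10 imprinted genes, 1 point per library, coloured by group (circle, square and triangle for replicates 1, 2 and 3). H19 lies above all others in every library and Nnat below all others, with Dlk1 and Mest sharing the second place.

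In Cre-Idh1 against Cre control libraries, the data showed 1 clear decrease among the 10 genes, that of Ndn, and differences in both directions that did not pass the test for the others. The limma test called 1 gene, lower in Cre-Idh1, at an adjusted p under 0.05, where 19.2% of all 14851 genes tested were called. For 8 of the 10, 5 lower and 3 higher in Cre-Idh1, the groups were apart with no overlap, against 41% of all genes (20.1% higher and 20.9% lower). DESeq2, where 23.3% of genes were called, called 4 of the 10 against the Cre control, and edgeR 1, with 19.1% of genes. The median log2 fold change of the 10 genes was -0.28, beside -0.01 over all genes. In Cre-Idh1 against floxed control libraries, which uses the same Cre-Idh1 libraries, limma again called Ndn alone, and 14.4% of 15212 genes were called. Again 5 genes were lower and 3 higher with no overlap between groups, against 53.4% of all genes (26.6% higher and 26.7% lower). Against the floxed control DESeq2 called 5 of the 10 with 20.3% of genes, and edgeR 4 with 14.5%. The median of the 10 genes there was -0.17, beside 0.00 over all genes. The share of the 10 genes called by limma was thus no higher than that of all genes, while the share with groups apart was higher than that of all genes against either control. The 10 genes were chosen with earlier results of these data known, so the latter is a description and not independent support.

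**Figure D2:**
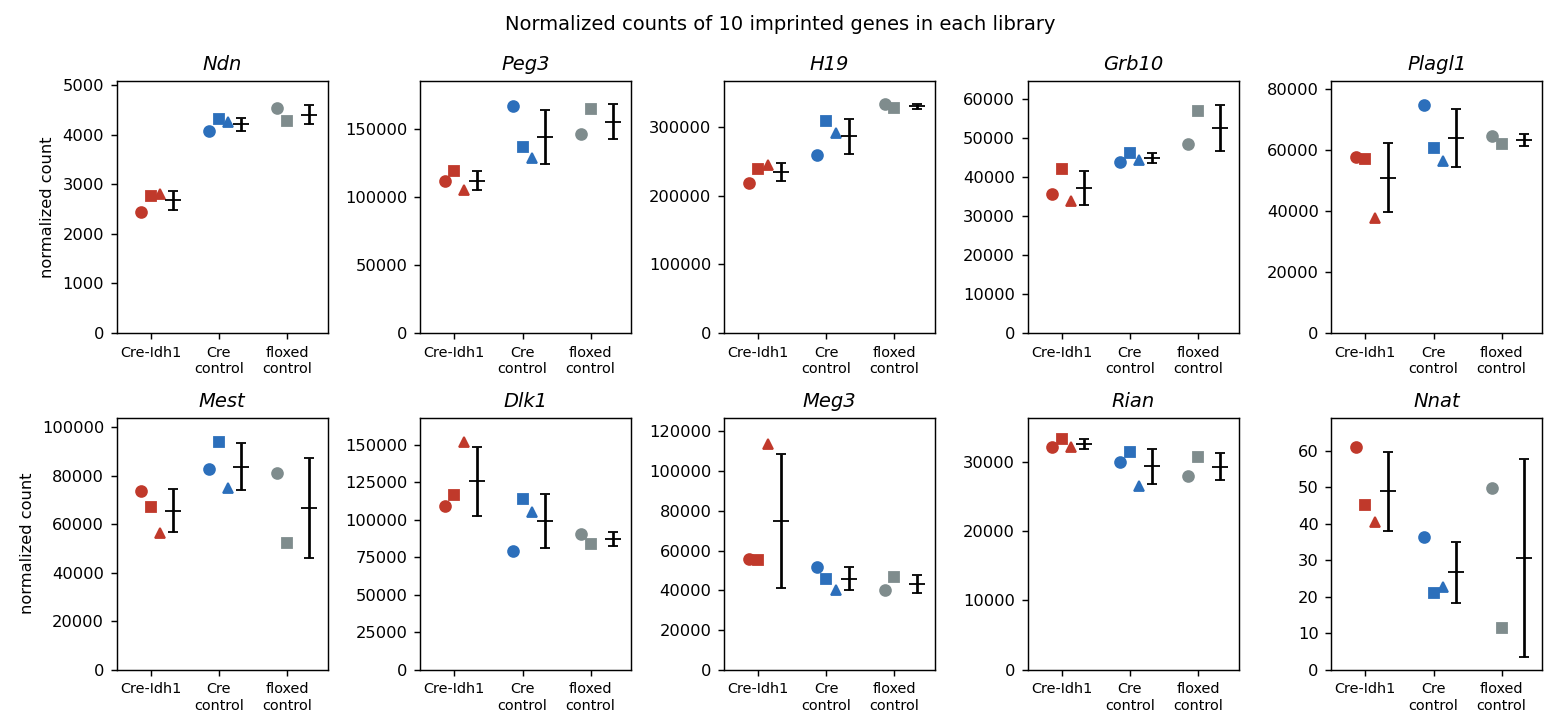
Normalized count of each of the 10 imprinted genes in every library, with the axis from 0. Circle, square and triangle are replicates 1, 2 and 3 of a group, and the bar beside them is the mean ± SD. Ndn is below all control libraries in all 3 Cre-Idh1 libraries, and Cre-Idh1 library 3 is the highest for Meg3 and Dlk1 and the lowest for Plagl1.

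Ndn encodes necdin, a protein of the MAGE family that restrains growth and is known from the Prader-Willi region. Its normalized counts were 2447, 2766 and 2807 in Cre-Idh1 libraries, 4063, 4303 and 4250.3 in Cre control libraries and 4538 and 4267 in floxed control libraries. The 3 Cre-Idh1 libraries were the lowest of the 8 and lay far from the 5 control libraries, which stayed close together. Ndn fell by 36.5% against the Cre control, with a log2 fold change of -0.66 ± 0.09 (SE) and a limma adjusted p of 0.00158. The call was kept whichever of the 6 libraries was left out, with log2 fold changes from -0.69 to -0.59. Against the floxed control Ndn fell by 39.3% (-0.72 ± 0.11, limma adjusted p = 0.00702). With floxed control library 1 left out the limma adjusted p was 0.0790 and with library 2 left out 0.0911, at log2 fold changes of -0.68 and -0.77. Between the controls Ndn differed by 0.07 ± 0.06 on the log2 scale (limma adjusted p = 0.844).

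Peg3, a large zinc finger protein of the paternal allele, was lower in all 3 Cre-Idh1 libraries than in any control library without passing the test in either pair. Peg3 counts were 111631, 118893 and 104967 in Cre-Idh1, 166457, 136564 and 128689 in Cre control and 145831 and 164194 in floxed control libraries. The groups did not overlap, but the Cre control libraries were spread widely. On the log2 scale the difference was -0.36 ± 0.14 against the Cre control (limma adjusted p = 0.114) and -0.47 ± 0.14 against the floxed control (adjusted p = 0.0669).

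H19 is a long non-coding RNA of the maternal allele that carries a microRNA and is known to limit growth. Its counts were 219501, 239426 and 244964 in Cre-Idh1, 259802, 310059 and 291656 in Cre control and 333595 and 328503 in floxed control libraries. The 3 groups formed separate ranges, with Cre-Idh1 lowest and floxed control highest. Its log2 fold change was -0.29 ± 0.15 against the Cre control (limma adjusted p = 0.222) and -0.50 ± 0.16 against the floxed control (adjusted p = 0.0793).

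Grb10 encodes an adaptor protein that binds the insulin and insulin-like growth factor receptors and damps their signal. Its counts were 35692, 41972 and 33908 in Cre-Idh1, 43969, 46211 and 44484 in Cre control and 48379.5 and 56805 in floxed control libraries. As for H19, the groups formed separate ranges in the same order. On the log2 scale these differences were -0.28 ± 0.11 against the Cre control (limma adjusted p = 0.112) and -0.50 ± 0.14 against the floxed control (adjusted p = 0.0541).

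Plagl1 encodes a zinc finger transcription factor, also called ZAC1, that regulates other imprinted genes in mouse. Its counts were 57933, 57138 and 37805 in Cre-Idh1, 74733, 60842 and 56472 in Cre control and 64721 and 61910.0 in floxed control libraries. Cre-Idh1 library 3 was the lowest of all, while the other 2 Cre-Idh1 libraries overlapped the Cre control. Its log2 fold change was -0.35 ± 0.18 against the Cre control (limma adjusted p = 0.221) and -0.34 ± 0.20 against the floxed control (adjusted p = 0.283). Without Cre-Idh1 library 3 these values were -0.14 and -0.14, and without Cre control library 1 the first was -0.23.

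Mest encodes a hydrolase-fold protein of the paternal allele that marks fetal mesoderm. Its counts were 73585, 67157 and 56249 in Cre-Idh1, 82674, 93867 and 74862 in Cre control and 81286 and 52126 in floxed control libraries. Cre-Idh1 lay below the Cre control without overlap, but floxed control library 2 was the lowest of the 8. The log2 fold change was -0.35 ± 0.14 against the Cre control (limma adjusted p = 0.114) and 0.00 ± 0.21 against the floxed control (adjusted p = 0.992), and the latter took either sign across the processing alternatives.

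The 3 genes of the chromosome 12 domain were higher on average in Cre-Idh1 libraries, and none passed the test against either control. Dlk1 encodes a membrane protein related to the ligands of Notch that holds back differentiation of fat and other mesenchymal cells. Dlk1 counts were 108939, 116315 and 151879 in Cre-Idh1, 79056, 113600.1 and 104979.6 in Cre control and 90598 and 83838 in floxed control libraries. Cre-Idh1 library 3 was the highest, library 1 lay within the Cre control range, and all 3 were above the floxed control. The log2 fold change was 0.34 ± 0.18 against the Cre control (limma adjusted p = 0.221) and 0.51 ± 0.18 against the floxed control (adjusted p = 0.0931). The first was 0.20 without Cre-Idh1 library 3 and 0.19 without Cre control library 1, and the second was 0.37 without Cre-Idh1 library 3.

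Meg3, a long non-coding RNA of the maternal allele in the same domain, had counts of 55819, 55155 and 113673 in Cre-Idh1, 51545, 45836 and 40217 in Cre control and 40085 and 46417 in floxed control libraries. All Cre-Idh1 libraries were above all control libraries, but library 3 alone held about the sum of the other 2. The log2 fold change was 0.63 ± 0.26 against the Cre control (limma adjusted p = 0.124) and 0.28 without library 3 (adjusted p = 0.125). Against the floxed control it was 0.71 ± 0.31 (limma adjusted p = 0.163) and 0.36 without library 3 (adjusted p = 0.0645). Rian, the maternal RNA downstream of Meg3 that hosts small nucleolar RNAs, had counts of 32078, 33302 and 32156 in Cre-Idh1, 29992, 31458 and 26557 in Cre control and 27889 and 30674 in floxed control libraries. Rian was the steadiest of the 10 genes, with 1.25 times between its highest and lowest library, and library 3 did not stand out in it. Its log2 fold change was 0.15 ± 0.10 and 0.15 ± 0.11 against the 2 controls (limma adjusted p = 0.313 and 0.363).

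Nnat encodes neuronatin, a small membrane proteolipid of brain and endocrine tissue. Its normalized counts were 61.0, 45.1 and 40.4 in Cre-Idh1, 36.3, 21.0 and 22.8 in Cre control and 49.8 and 11.4 in floxed control libraries. Cre-Idh1 was above the Cre control without overlap, while the 2 floxed control libraries spanned most of the range. Its log2 fold change of 0.87 ± 0.31 against the Cre control did not pass (limma adjusted p = 0.0821), nor did that of 0.97 ± 0.58 against the floxed control (adjusted p = 0.288). The latter was 1.99 without floxed control library 1 and -0.050 without library 2.

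**Figure D3:**
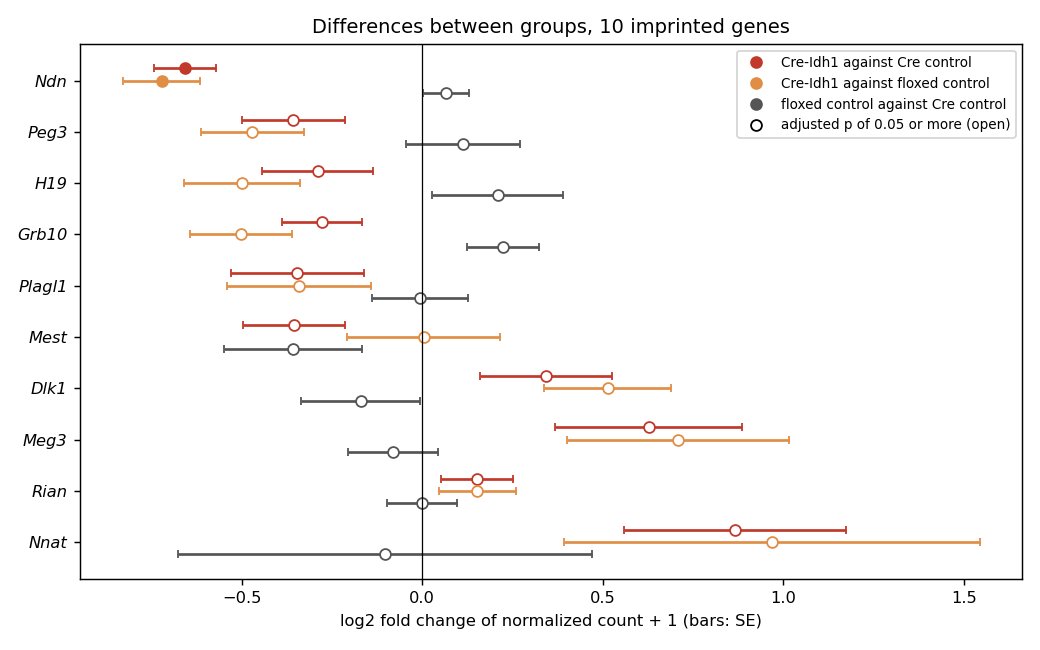
Log2 fold change of normalized count + 1 with its standard error for the 10 imprinted genes in the 3 pairwise comparisons. Filled points passed a limma adjusted p under 0.05, which holds for Ndn alone, at -0.66 and -0.72, and points of the same gene share libraries.

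The 2 control groups, compared with each other, gave the background against which these differences stand. None of the 10 genes was called by limma, where 0.0134% of 14870 genes were. At an unadjusted p under 0.05, limma had 0 of them, edgeR 1 and DESeq2 2. Over all genes, limma had 1133 of 14870 under it, edgeR 1114 of 14870 and DESeq2 889. After adjustment edgeR and DESeq2, which called 0.0134% and 0.754% of all genes, called 0 of the 10. H19 and Grb10 were higher in both floxed control libraries than in any Cre control library, a state that 24.8% of all genes showed in one direction or the other. Their log2 fold changes were 0.21 ± 0.18 and 0.22 ± 0.10 (limma adjusted p = 0.821 and 0.670). Mest stood at -0.36 ± 0.19 (adjusted p = 0.708), which is as far from 0 as its value in Cre-Idh1 against the Cre control. The median of the 10 genes was -0.00, beside 0.01 over all genes.

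Set against the mean of both controls in 1 fit of all 8 libraries, 5 of the 10 genes passed the test, in a comparison where limma called 31.2% of 15505 genes. Ndn (-0.69 ± 0.07, limma adjusted p = 0.000143), Grb10 (-0.39 ± 0.10, adjusted p = 0.0153), Peg3 (-0.41 ± 0.12, adjusted p = 0.0290) and H19 (-0.39 ± 0.13, adjusted p = 0.0440) fell. Meg3 rose by 0.67 ± 0.22 on the log2 scale (adjusted p = 0.0443). Ndn, Grb10, Peg3 and H19 were lower, and Meg3 and Rian higher, in each Cre-Idh1 library than in each control library, where 35.4% of all genes were apart in this way (17.4% higher and 18% lower). Ndn was the only one of the 5 to pass in all 8 fits that left out 1 library. H19 passed in 1 of these fits, the one without Cre control library 1. Grb10 was lost without floxed control library 2 (limma adjusted p = 0.0642), and Peg3 without that library (0.0952), Cre-Idh1 libraries 1 (0.0608) or 3 (0.0692) or Cre control library 2 (0.05002). Meg3 was lost without Cre-Idh1 library 3 (0.32, adjusted p = 0.0508), any Cre control library or either floxed control library. Dlk1 did not pass (0.43 ± 0.15, adjusted p = 0.0590).

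The authors' deposited table called more of these genes. Against the Cre control it listed adjusted p-values of 1.08e-10 for Ndn, 0.0132 for Peg3 and 0.0149 for H19, with 23.1% of 16432 genes under 0.05. Against the floxed control the authors' deposited table called Ndn (1.66e-10), H19 (5.5e-05), Grb10 (0.000524) and Peg3 (0.00283) lower and Dlk1 (0.0156) higher, with 24.9% of genes under 0.05. Between the controls it called 0 of the 10, with 0.219% of genes under 0.05. The directions were those of the limma fits for every gene called by either.

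The members did not vary as 1 block. Over the 8 libraries, log2 values of Ndn and H19 had a Pearson r of 0.91, Grb10 and H19 0.85, and Grb10 and Peg3 0.85, all genes that were lower in Cre-Idh1. Dlk1 ran against Peg3 (-0.91) and against Plagl1 (-0.90). After each group's mean was taken away, Dlk1 still ran against Plagl1 (-0.89) and Peg3 (-0.81), while Grb10 and H19 dropped to an r of 0.14. Within groups Dlk1 went with H19 (0.90), although over all libraries their r was -0.47. These are descriptions over 8 libraries that share groups, depth and scaling. Compared with the 13437 genes considered, the genes most like Ndn were Zfp940 (0.996), Phyh (0.994) and Ccdc8 (0.994). The gene most like Grb10 was Reps2 (0.999), and the gene most like H19 was L3hypdh (0.990). For Peg3 it was Myef2 (0.991) and for Meg3 Gm20036 (0.988). Dlk1 was most like Rpl7a (0.969), Rian most like Pde8a (0.961) and Mest most like Rhoj (0.949). No member was among the 3 genes most like another.

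Beyond these 10, a list of 47 other imprinted genes gave 40 in the files and 39 tested, and more of them fell than rose. Against the Cre control 7 fell, 2 rose and 30 did not pass, with 14 lower and 6 higher without overlap between groups and a median log2 fold change of -0.24. Against the floxed control 8 fell, 1 rose and 30 did not pass, with 18 lower and 6 higher without overlap and a median of -0.16. Between the controls 0 of 38 passed limma and 3 had an unadjusted limma p under 0.05, as did 1133 of all 14870 genes. There edgeR called 0 and DESeq2 called 1. The shares of all genes called and apart in each comparison are those given above, with 9.39% of all genes called lower and 9.8% higher against the Cre control and 6.96% and 7.47% against the floxed control.

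Magel2, the MAGE family gene beside Ndn in the Prader-Willi region, had the largest decrease of those that passed in both comparisons. Its counts were 1469, 1231 and 1579.5 in Cre-Idh1, 3076, 3066 and 3089 in Cre control and 3410.4 and 3601 in floxed control libraries. All control libraries were far above all Cre-Idh1 libraries. Magel2 fell by 1.12 ± 0.10 on the log2 scale against the Cre control (limma adjusted p = 0.000360) and fell by 1.30 ± 0.13 against the floxed control (adjusted p = 0.00219), and kept its call in each fit that left out 1 library. The neighbours Ndn and Magel2 thus both fell, Magel2 by more. Other tested neighbours of Ndn did not pass against either control. Against the Cre and the floxed control, Snrpn was at 0.47 and 0.34 on the log2 scale and Mkrn3 at 0.03 and -0.40. Ube3a was at -0.40 and -0.50 and Peg12 at -0.26 and -0.35.

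Several imprinted genes of chromosome 6 fell as well, although Mest itself did not pass. Klf14, a Krüppel-like transcription factor gene near Mest, was at 442 ± 11.3 (n = 3) in Cre-Idh1, 962 ± 139 (n = 3) in Cre control and 854 ± 92.6 (n = 2) in floxed control libraries and fell, with log2 fold changes of -1.11 ± 0.12 and -0.95 ± 0.13 against them. Copg2, a coatomer subunit gene whose exons overlap those of Mest, was at 1107 ± 125, 1737 ± 102 and 1837 ± 35.0 and fell, at -0.65 ± 0.11 and -0.74 ± 0.12. Sgce, which encodes the membrane protein epsilon-sarcoglycan, was at 1026 ± 71.1, 1678 ± 119.8 and 1816 ± 50.9 and fell, at -0.71 ± 0.10 and -0.83 ± 0.11. Asb4, an ankyrin repeat gene of the cluster that holds Sgce, was at 1989.7 ± 200.4, 2880.3 ± 97.5 and 3647 ± 286 and fell, at -0.54 ± 0.10 and -0.88 ± 0.12. All 4 genes were lower in each Cre-Idh1 library than in each control library. Their limma adjusted p-values ran from 0.000777 to 0.00617 against the Cre control and from 0.00548 to 0.0109 against the floxed control. Against the Cre control all 4 calls were kept with any library left out, and against the floxed control all 4 were lost without floxed control library 2 and all but Asb4 without floxed control library 1. Slc38a4, an amino acid transporter gene on chromosome 15, was at 3832 ± 433, 5471 ± 152 and 6339.9 ± 269.8 and fell, at -0.52 ± 0.10 and -0.73 ± 0.12 (limma adjusted p = 0.00834 and 0.0102). The first of these calls was lost without Cre control library 3 and the second without either floxed control library.

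Next to H19, the fetal growth factor gene Igf2, of the paternal allele, was higher in each Cre-Idh1 library than in each control library and did not pass. Its counts were 450799.7, 537369 and 469883 in Cre-Idh1, 349660.3, 393193 and 381937 in Cre control and 396303 and 433993 in floxed control libraries. H19 and Igf2, which share enhancers in mouse, thus lay on opposite sides of the controls. The log2 fold change of Igf2 was 0.37 ± 0.18 (limma adjusted p = 0.175) and 0.22 ± 0.19 (adjusted p = 0.461). Cdkn1c, a cyclin-dependent kinase inhibitor of the maternal allele farther along chromosome 7, was at 18134 ± 699, 21979 ± 2156 and 25576 ± 3097. Cdkn1c fell by 0.49 ± 0.12 against the floxed control (limma adjusted p = 0.0307), a call lost without Cre-Idh1 libraries 1 or 2 or either floxed control library, and its value against the Cre control was -0.27 ± 0.10 (adjusted p = 0.0878).

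In the chromosome 12 domain of Dlk1, Meg3 and Rian, 2 further transcripts passed upward, while Rtl1, next to Meg3, did not pass. Rtl1 was at -0.45 ± 0.37 against the Cre control and -0.09 ± 0.42 against the floxed control (limma adjusted p = 0.422 and 0.908). Mirg, a non-coding microRNA host downstream of Rian, had counts of 3906, 3836 and 6124 in Cre-Idh1, 3039, 3277 and 2793 in Cre control and 3059 and 2946 in floxed control libraries. As for Meg3, Cre-Idh1 library 3 was the highest, and all Cre-Idh1 libraries were above all control libraries. Mirg rose by 0.57 ± 0.17 on the log2 scale against the Cre control (limma adjusted p = 0.0462), a call lost without any 1 of the Cre control libraries, and was at 0.59 ± 0.20 against the floxed control (adjusted p = 0.0948). Dio3, the deiodinase that inactivates thyroid hormone, was low at 35.7 ± 8.72 (n = 3) in Cre-Idh1, 10.8 ± 3.53 (n = 3) in Cre control and 7.75 ± 2.68 (n = 2) in floxed control libraries. Dio3 rose by 1.65 ± 0.37 and 2.08 ± 0.41 (limma adjusted p = 0.0159 and 0.0184), and the calls were lost without Cre-Idh1 library 2, Cre control libraries 2 or 3, or either floxed control library.

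**Figure D4:**
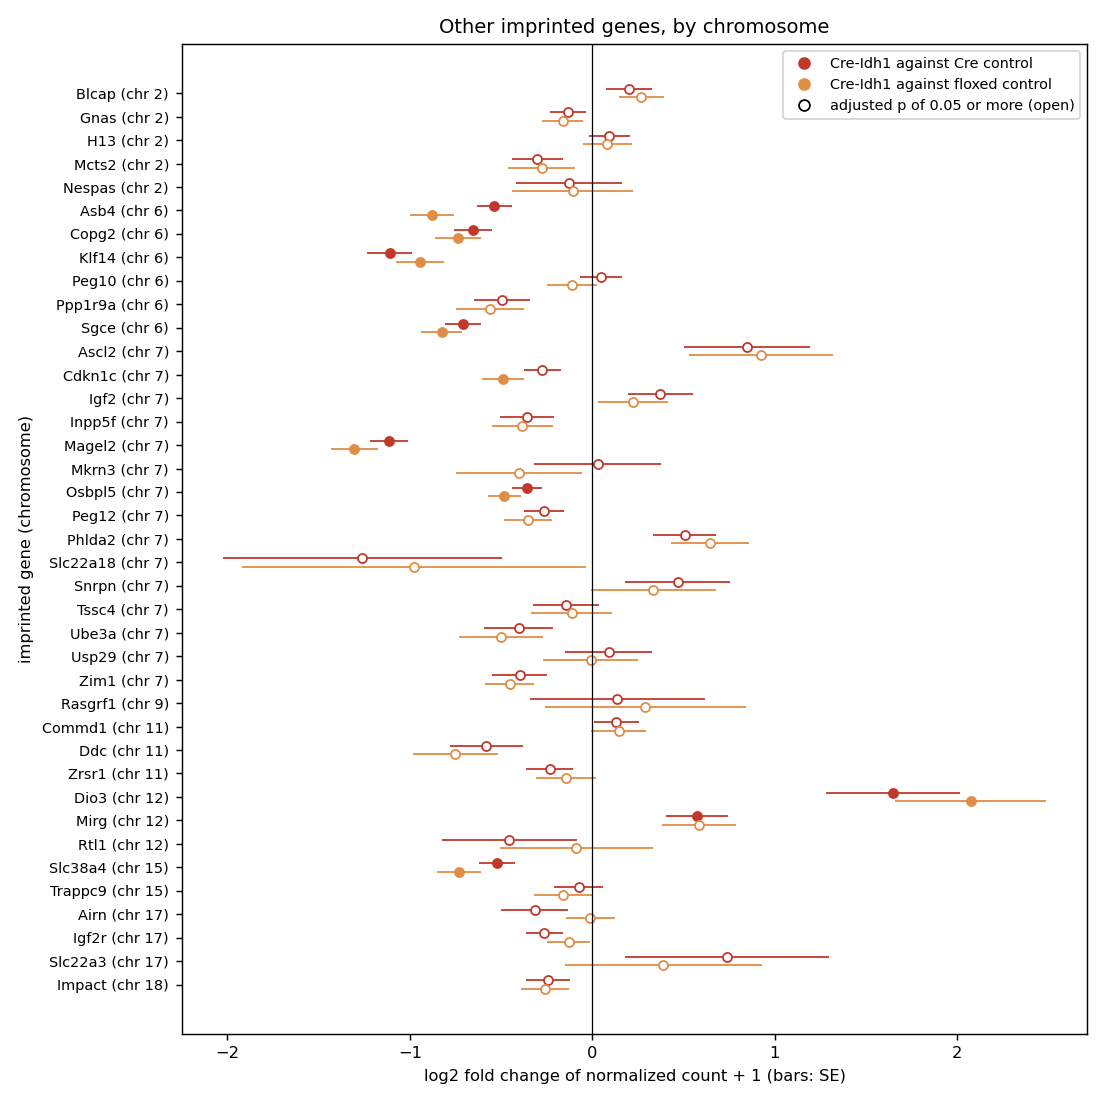
Log2 fold change of normalized count + 1 with its standard error for the 39 other imprinted genes tested, sorted by chromosome, in Cre-Idh1 against each control. Filled points passed a limma adjusted p under 0.05. Falls on chromosome 6 and of Magel2 stand against rises of Dio3 and Mirg on chromosome 12.

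The 3 listed genes on each side of every member in the RefSeq gene order were examined too. Of the 44 such neighbours tested against the Cre control, 12 fell and 1 rose, where 9.39% of all genes were called lower and 9.8% higher. Of 45 tested against the floxed control, 7 fell and 1 rose, where 6.96% were called lower and 7.47% higher. The falls in both comparisons include Copg2 and Magel2, which are also counted among the other imprinted genes above. Beside Dlk1 and Meg3, Begain, a gene of postsynaptic protein, was the one that rose, from 373 ± 62.7 and 293 ± 60.2 in the controls to 553 ± 103 in Cre-Idh1. Its log2 fold changes were 0.56 ± 0.17 and 0.91 ± 0.20 (limma adjusted p = 0.0489 and 0.0268). The call against the Cre control was lost in 5 of the 6 fits that left out 1 library, and that against the floxed control without either floxed library. Beside H19, Tnnt3, a troponin gene of fast skeletal muscle, was at 217 ± 38.3 in Cre-Idh1 and at 1433 ± 42.2 and 1701 ± 156 in the controls. It fell, with log2 fold changes of -2.73 ± 0.14 and -2.97 ± 0.17 (limma adjusted p = 4.12e-05 and 0.000775). Beside Plagl1, Ltv1, a gene of ribosome assembly, fell, at -1.02 ± 0.08 and -0.997 ± 0.09, as did Fuca2, a fucosidase gene, at -0.91 ± 0.10 and -0.90 ± 0.12. Beside Nnat, the tyrosine kinase gene Src fell, at -0.68 ± 0.08 and -0.62 ± 0.10, and beside Mest so did Cep41, a gene of the cilium and centriole, at -0.69 ± 0.12 and -0.60 ± 0.13. The limma adjusted p-values of Ltv1, Fuca2, Src and Cep41 were 0.000174, 0.000642, 0.00116 and 0.00461 against the Cre control, and these calls were kept with any library left out. They were 0.00194, 0.00582, 0.0101 and 0.0260 against the floxed control. There Ltv1 kept its call in every such fit, while Fuca2 and Src lost theirs without either floxed control library and Cep41 also without Cre-Idh1 library 1. Falls that passed against the Cre control alone included those of Lsp1 and Mrpl23 near H19, Zfp418 near Peg3 and Tsga13 near Mest, each called in at most 3 of the 6 fits that left out 1 library. Tnnt3, Ltv1 and Fuca2, which are not known as imprinted, thus had larger log2 fold changes than any of the 10 genes that passed.

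Among 15 genes that set or keep imprints, 2 rose and 2 fell against the Cre control, where 19.2% of all genes were called. In the comparison with the floxed control, where 14.4% were, 1 rose and 1 fell. Tet1, a dioxygenase that oxidizes methylated cytosine, was at 739 ± 114 in Cre-Idh1, 1676 ± 208 in Cre control and 2011 ± 542 in floxed control libraries. It fell, with log2 fold changes of -1.19 ± 0.14 and -1.43 ± 0.20 (limma adjusted p = 0.000939 and 0.00594), the second call being lost without floxed control library 2. Uhrf1, which brings the maintenance methyltransferase to replicated DNA, fell by 0.54 ± 0.15 against the Cre control (adjusted p = 0.0332), lost without any 1 Cre control library. Dnmt3l, a cofactor of germ line methylation, was counted among the rises against both controls (limma adjusted p = 0.0430 and 0.0476) at a low level, with 16.0 ± 2.81 normalized counts in Cre-Idh1 and 4.001 ± 3.09 and 3.76 ± 1.59 in the controls. Each of these calls was kept in only 1 of the fits that left out 1 library, the one without Cre control library 3 in the first comparison and the one without Cre-Idh1 library 3 in the second. Cell cycle genes also moved with the genotype: 4 of 12 fell against the Cre control, where 9.39% of all genes were called lower. Against the floxed control 6 of 12 fell, where 6.96% were called lower. Their summed counts were 14725 to 18862 in Cre-Idh1, 21721 to 22259 in Cre control and 24645 to 25180.3 in floxed control libraries. The controls differed too: 8 of the 12 were higher in both floxed control libraries than in any Cre control library, as were 14.1% of all genes. Between the controls 0 of the 12 passed limma. The part of the cell cycle genes in the differences of the imprinted genes was not tested.

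In the insulin and insulin-like growth factor pathway, on which Grb10 and Igf2 act, 1 of 10 genes passed against each control. Of all genes, 19.2% passed against the Cre control and 14.4% against the floxed control, so the pathway's share was no higher. Irs2, a docking protein of the receptors, was at 1593 ± 84.7 in Cre-Idh1, 1005 ± 91.2 in Cre control and 856 ± 5.20 in floxed control libraries and rose by 0.67 ± 0.10 and 0.89 ± 0.11 (limma adjusted p = 0.00294 and 0.00381). The second call was lost without floxed control library 2. Of 7 other genes of the fetal growth programme tested, Hmga1, a chromatin protein abundant in embryos, rose by 1.60 ± 0.11 and 2.09 ± 0.21 (adjusted p = 0.000132 and 0.00233), from 481 ± 30.1 and 351 ± 120.1 to 1461 ± 153 normalized counts. The remaining 6 did not pass in either comparison.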

How the data were processed

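Messenger RNA of 8 libraries was read from 3 pairwise tables, 1 for each pair of groups. Per the submitters' processing notes the tools include Trim Galore, cutadapt, STAR, HTSeq and DESeq2, with no versions or genome build given in the sources used here. The values deposited by the authors are signal, named normalized expression per the file headers. In steps of 1 value per library, 100.0% of 131456 values gave whole reads within 0.001 reads, so they are treated as reads scaled by 1 factor per library. The log2 fold changes, p-values and adjusted p-values in the authors' deposited table come from their own test and are named where printed. The test statistic deposited by the authors is a score and was not used. Each gene's exon length was taken from the GENCODE annotation, and promoter windows from RefSeq on GRCm38.p6.

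Each pair of groups was tested with limma 3.58.1 (R 4.3.3, with a mean-variance trend, two-sided) on log2(value + 1). A gene was tested if it reached a value of 10 in a number of libraries equal to the size of the smaller group, and p-values were adjusted by Benjamini-Hochberg over all genes tested, with a call at an adjusted p under 0.05. The added 1 draws log2 fold changes of low genes such as Nnat and Dio3 toward 0. For Nnat against the floxed control the limma value was 0.97, 0.99 with 0.5 added instead and 0.70 with 10 added. Both edgeR and DESeq2 gave a smaller value there, 0.68. A further fit of all 8 libraries set Cre-Idh1 against the mean of both controls. The recovered reads were also tested with edgeR 4.0.16, which called 2832 genes against the Cre control and 2212 against the floxed control, and DESeq2 1.42.0, and the other alternatives changed the filter, pseudocount, scaling, threshold and covariates or left out 1 library. When 1 floxed control library was left out, the lone one was assumed to vary like the other group. In Cre-Idh1 against floxed control libraries, far fewer of all genes passed in those fits. A call lost there does not by itself set a gene apart from the rest. The fits were tested on simulated data. Tables and figures were made with Python 3.11.15, pandas 2.3.3, numpy 2.4.6 and matplotlib 3.10.9.

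The 10 genes and all gene lists were chosen with earlier results of these data known. Named are all 10 genes, the called genes of the other imprinted list (up to the 8 largest, plus Igf2, Mirg and Cdkn1c), up to 3 called genes of each further list, called neighbours, and the genes with the most similar profile among those with at least 10 in every library. A few genes that this rule names are not reported here.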

Additional observations from a re-analysis of the deposited data

How the results depend on the processing

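Of the 676 values of the 10 genes recomputed under alternatives, 603 kept direction and side of the threshold, 29 newly passed, 21 no longer passed and 23 changed sign. For the other named genes 1304 of 1495 values kept both. Against the Cre control, where 1 of the 10 genes was called, an adjusted p under 0.1 gave 2, with 4093 of all 14851 genes. DESeq2 gave 4 and the authors' deposited adjusted p 3, at the shares of all genes given above. Leaving out 1 library there gave 1 each time. Against the floxed control, where 1 was called, the values without scaling factors gave 3, with 1917 of all 15297 genes. A threshold of 0.1 gave 5, with 3554 of 15212 genes, and the fit of all 8 libraries 2, with 3573 of 15505. There edgeR gave 4, DESeq2 5 and the authors' deposited adjusted p 5, at the shares given above. Leaving out 1 library gave at most 1. Without either floxed control library that group holds 1 library, and far fewer of all genes passed. A call lost in those fits is therefore not particular to the imprinted genes. Between the controls every alternative gave 0. Against both controls, where 5 were called, leaving out 1 library gave 1 to 4: 2 without Cre-Idh1 library 3 or Cre control library 2, 3 without Cre control library 3 and 1 without floxed control library 2. Of the other imprinted genes, 9 were called against each control. A threshold of 0.1 gave 14 against each and the authors' deposited adjusted p gave 15 against each. Leaving out 1 library gave 5 to 11 against the Cre control, 5 without Cre control library 3, and 1 to 13 against the floxed control, 2 without floxed control library 1 and 1 without library 2. DESeq2 called 1 of them between the controls.

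Signs changed for 7 log2 fold changes, none of them called in the fit reported, and the cause was not tested. Mest against the floxed control was -0.0094 under TMM scaling, -0.083 with embryo sex as a covariate, -0.031 by edgeR, -0.026 by DESeq2, -0.023 in the authors' deposited table and -0.32 to 0.32 with 1 library left out, and Nnat was -0.050 to 1.99. In this comparison only Cre-Idh1 library 1 came from a female. The sex covariate there thus gave the same value as leaving that library out, and is not a separate alternative. Between the controls, with 1 library left out, Meg3 ran from -0.19 to 0.025, Rian from -0.071 to 0.068, Plagl1 from -0.091 to 0.11, Nnat from -1.12 to 0.92, and Mirg from -0.072 to 0.043. Plagl1 was 0.057 with the sex covariate, and Nnat 0.19 with it, 0.17 by edgeR, 0.18 by DESeq2 and 0.19 in the authors' deposited table. Nnat rests on 13 to 59 reads a library. No paired analysis was possible because the replicate numbers follow the order of the records and carry no pairing.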

Other observations

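Dlk1 is related to the ligands of Notch, a receptor by which neighbouring cells signal to each other. Some genes of that pathway rose in Cre-Idh1 libraries. Of 13 tested, 5 rose and 8 did not pass against the Cre control, where 9.8% of all genes were called higher. Against the floxed control 3 rose and 10 did not pass, where 7.47% were called higher. The median log2 fold changes were 0.33 and 0.81, beside -0.01 and 0.00 over all genes. Jag2, a ligand, was at 227, 241 and 204 normalized counts in Cre-Idh1, 47.3, 88.7 and 54.8 in Cre control and 45.9 and 47.3 in floxed control libraries. All Cre-Idh1 libraries were well above all control libraries. Jag2 rose by 1.85 ± 0.24 and 2.24 ± 0.20 on the log2 scale (limma adjusted p = 0.00158 and 0.00187). Jag1, another ligand, was at 673 ± 42.1 (n = 3), 266 ± 5.70 (n = 3) and 264 ± 21.4 (n = 2) and rose by 1.34 ± 0.11 and 1.35 ± 0.14. Both ligands kept their calls in each fit that left out 1 library. Dll4, a ligand of blood vessels, had 27.4 ± 13.03 and 7.21 ± 3.50 normalized counts in Cre-Idh1 and Cre control libraries, and its call was lost in 5 of 6 such fits. Hey1, a target gene of the receptor, was at 254 ± 36.9, 131 ± 21.6 and 134 ± 0.450 and rose by 0.90 ± 0.19 against the floxed control (limma adjusted p = 0.0206), a call lost without either floxed control library. The summed counts of all listed genes of the pathway overlapped between groups, from 15342 to 17888 in Cre-Idh1 and 15349 to 18337 in Cre control libraries. Endothelial markers, which belong to cells that use Dll4, summed to 205 to 744 in Cre-Idh1 and 155 to 248.8 in Cre control libraries, and their part in these rises was not tested.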
